A study of Mus musculus with 5 samples.

Results

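Intestinal epithelium genes were examined for binding of CTCF, the zinc finger protein of insulators and chromatin loop anchors, in mouse fibroblasts that carry an inducible gene for CDX2. The list of 29 genes was taken by name from known markers of the intestine and its regulators, as targets of CDX2 programs. They were set among 21779 protein-coding genes in the RefSeq annotation of GRCm38.p6, the assembly behind mm10. All 29 names matched a gene, on 15 chromosomes. The genes were divided by role into 13 enterocyte genes, 5 surface and adhesion genes, 3 secretory genes, 3 stem cell genes and 5 regulators.

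The chromatin came from NIH3T3 cells, a mouse embryonic fibroblast line, with stable H2B-mCherry, the rtTA3G transactivator and CDX2 under the TRE3G promoter. The samples comprised 2 CTCF immunoprecipitations after 6 h of doxycycline (CTCF_Dox), 2 CTCF immunoprecipitations without doxycycline (CTCF_noDox) and 1 input without doxycycline (Input_noDox). Every group carried the 3 transgenes, and the labels do not say whether the line was a clone or a pool. Doxycycline was given at 500 ng/µL, per the labels, a unit that was not checked. The values analysed were 1 list of 22756 CTCF peak intervals, in which the authors had merged both conditions. The list holds positions with no height, score, condition or replicate, so depth is unknown, the strength of a peak cannot be given, and the effect of CDX2 induction on CTCF was not tested. No expression values were analysed here, and the cell type could not be checked against its markers.

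CDX2 is a homeobox transcription factor that sets intestinal identity, and in the embryo it also acts in the trophectoderm. In the intestine it works together with HNF4 factors at the genes of absorptive enterocytes, while Atoh1 directs progenitor cells to the secretory fate and Lgr5 marks the stem cells of the crypt. Most of these genes are not typical of fibroblasts, although some, such as Anpep and Ephb2, are also used outside the intestine. CTCF binds many of its sites in most cell types, so a site near an intestinal gene is not by itself a sign of intestinal activity.

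A peak was assigned to a gene when its midpoint lay in the gene body or within 50 kb of it. By this measure 25 of the 29 intestinal epithelium genes had at least 1 CTCF peak, which is 86.2% (exact 95% binomial interval 68.3 to 96.1%, covering the counting of genes only). The background was 74.1% of all protein-coding genes, inside that interval. The median was 2 peaks per gene, with a range of 0 to 8, against a median of 2 peaks over all protein-coding genes. The genes without a peak were Heph, Sis, Cdh17 and Olfm4. At the other extreme, 5 genes (Vil1, Cdh1, Tff3, Ephb2 and Hnf4a) had 5 or more peaks, which is 17.2% of the list against 19.9% of all protein-coding genes.

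Peaks inside the genes were less common. A peak lay in the body of 9 of the 29 genes, which is 31.0%. The share was 29.5% for all protein-coding genes and 33.2% for the pooled genes of like length. These 9 genes held 16 peaks, of which 5 were in Ephb2, 3 in Gpa33, 2 in Hnf4a and 1 each in Alpi, Apoa1, Lct, Cdh1, Muc13 and Onecut2. Only Alpi and Apoa1 had a peak within 1 kb of either end of the gene. That is 6.9% of the list, against 12.0% of all protein-coding genes and 13.3% of the pooled genes of like length. In both genes the peak was at the 3′ end.

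**Figure D1:**
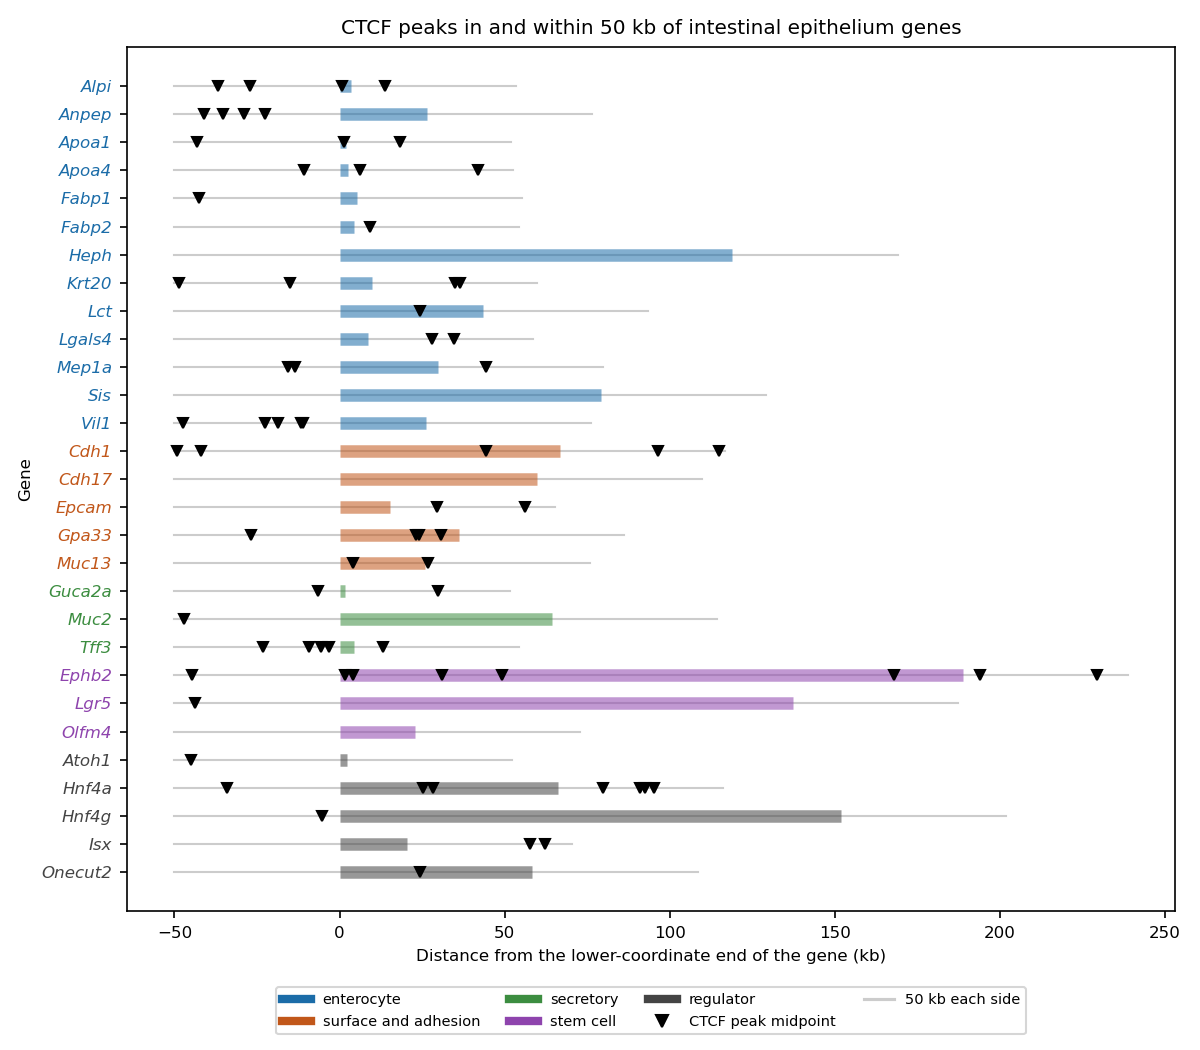
Each row is an intestinal epithelium gene, drawn to scale from its lower-coordinate end in kb, with the gene body as a bar coloured by role, 50 kb on each side as a grey line and CTCF peak midpoints as black triangles. Ephb2 carries 8 peaks and Hnf4a 7, the rows of Heph, Sis, Cdh17 and Olfm4 are empty, and the 5 peaks of Vil1 all lie on the lower-coordinate side of the gene.

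The 73 assignments came from 71 distinct peaks, because neighbouring Apoa1 and Apoa4 share 2 of them. Of the 71 peaks, 16 lay in the body of an intestinal gene, 14 in the body of another protein-coding gene and 41 outside protein-coding genes. An end of a protein-coding gene outside the list lay within 1 kb of 11 of them. The peaks had a median width of 261 bp and a range of 177 to 857 bp, and the median of all peaks in the file was 262 bp. At least 500 bp wide were 2 of the 71 peaks, which is 2.82%, against 4.05% of all peaks. The widest, of 857 bp (chr7:28867530-28868386), lay 26.2 kb beyond the end of Lgals4, and the other, of 555 bp (chr17:31121899-31122453), lay 3.13 kb from Tff3.

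RefSeq sequence was at hand for 300 bases around the annotated starts of 22 of the 29 genes, from 250 bases before to 50 bases after each start. None was found in the table for Cdh1, Cdh17, Heph, Hnf4g, Lgr5, Onecut2 and Tff3, and for these genes no start or strand is given below. The 22 genes had 24 such windows. No window overlapped a CTCF peak, against 4.22% of the 21263 windows of all protein-coding genes. Of the 24 windows 20 held at most 6 CpG, and of the other protein-coding windows with at most 6 CpG 0.898% overlapped a peak. Peaks assigned to the intestinal genes did cover the start windows of neighbouring genes, and in 4 peaks at least part of the sequence can be read in this way. The longest 3 stretches are shown because they are CTCF-bound sequence beside a stem cell gene, an enterocyte gene and a regulator. They are the peak at the start of Kdm1a, 44.7 kb from Ephb2 (chr4:136602739-136602971, minus strand), 198 bases of the peak at the start of Catip, 47.4 kb before Vil1 (chr1:74361885-74362082, plus strand), and 299 bases of the peak at the start of Fitm2, 34.1 kb before Hnf4a (chr2:163472580-163472878, minus strand). Capitals mark CCANNAGNNGG, a short form of the CTCF motif, on either strand.
Kdm1a peak near Ephb2: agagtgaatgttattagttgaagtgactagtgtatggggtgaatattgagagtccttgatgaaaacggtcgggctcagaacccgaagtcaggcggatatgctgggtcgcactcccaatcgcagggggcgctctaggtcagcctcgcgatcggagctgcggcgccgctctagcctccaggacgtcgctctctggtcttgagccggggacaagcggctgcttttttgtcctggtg
Catip peak near Vil1: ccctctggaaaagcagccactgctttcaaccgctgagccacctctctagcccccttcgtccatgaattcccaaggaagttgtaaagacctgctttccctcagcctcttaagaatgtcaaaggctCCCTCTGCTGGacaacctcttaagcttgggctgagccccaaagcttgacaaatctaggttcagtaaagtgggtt
Fitm2 peak near Hnf4a: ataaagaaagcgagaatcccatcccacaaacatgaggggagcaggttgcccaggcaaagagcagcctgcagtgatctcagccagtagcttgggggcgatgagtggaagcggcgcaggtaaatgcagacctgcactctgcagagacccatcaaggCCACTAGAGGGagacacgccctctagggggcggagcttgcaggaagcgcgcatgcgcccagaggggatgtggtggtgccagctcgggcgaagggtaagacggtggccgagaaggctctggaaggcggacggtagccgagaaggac
The motif was present in 2 of the 4 stretches, those of Catip and Fitm2, and was not found in these letters of the Kdm1a stretch or in 75 bases of the peak at the start of Bud13, 39.3 kb beyond Apoa4. Only exact matches to the short form were searched, so a stretch without one may still hold a variant of the motif. In the windows of the intestinal genes the short form was found in 2 of 24 (8.33%), at Apoa1 and Epcam, against 7.18% of 21239 windows of other protein-coding genes. Of the 687 other windows that overlapped a peak by at least 150 bases, 26.3% held it.

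Gene by gene, the peak number was set against the 500 protein-coding genes nearest in length outside the list. The median of those matched genes was 1 peak for Apoa1, Guca2a and Atoh1 and 2 peaks for each of the other genes. Above their matched median stood 13 of the 29 genes, or 44.8%, and over all protein-coding genes the share above was 43.3%. The matched genes were used as a description, with no test, and they do not account for how crowded a region is.

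Ephb2 stood highest among its matched genes, of which 92.2% had fewer peaks. It was followed by Hnf4a, where 89.4% had fewer, Vil1 with 79.6%, Cdh1 with 76.6% and Tff3 with 75.8%. At the low end, Heph had no peak while 85.4% of genes of its length had at least 1, and the same held for 82.6% at Cdh17, 80.2% at Sis and 76.0% at Olfm4. Between 14.6 and 24.0% of the matched genes of these 4 had no peak either. Heph lies on chromosome X, where 22.1% of the protein-coding genes had a peak, and its matched genes were not limited to that chromosome.

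**Figure D2:**
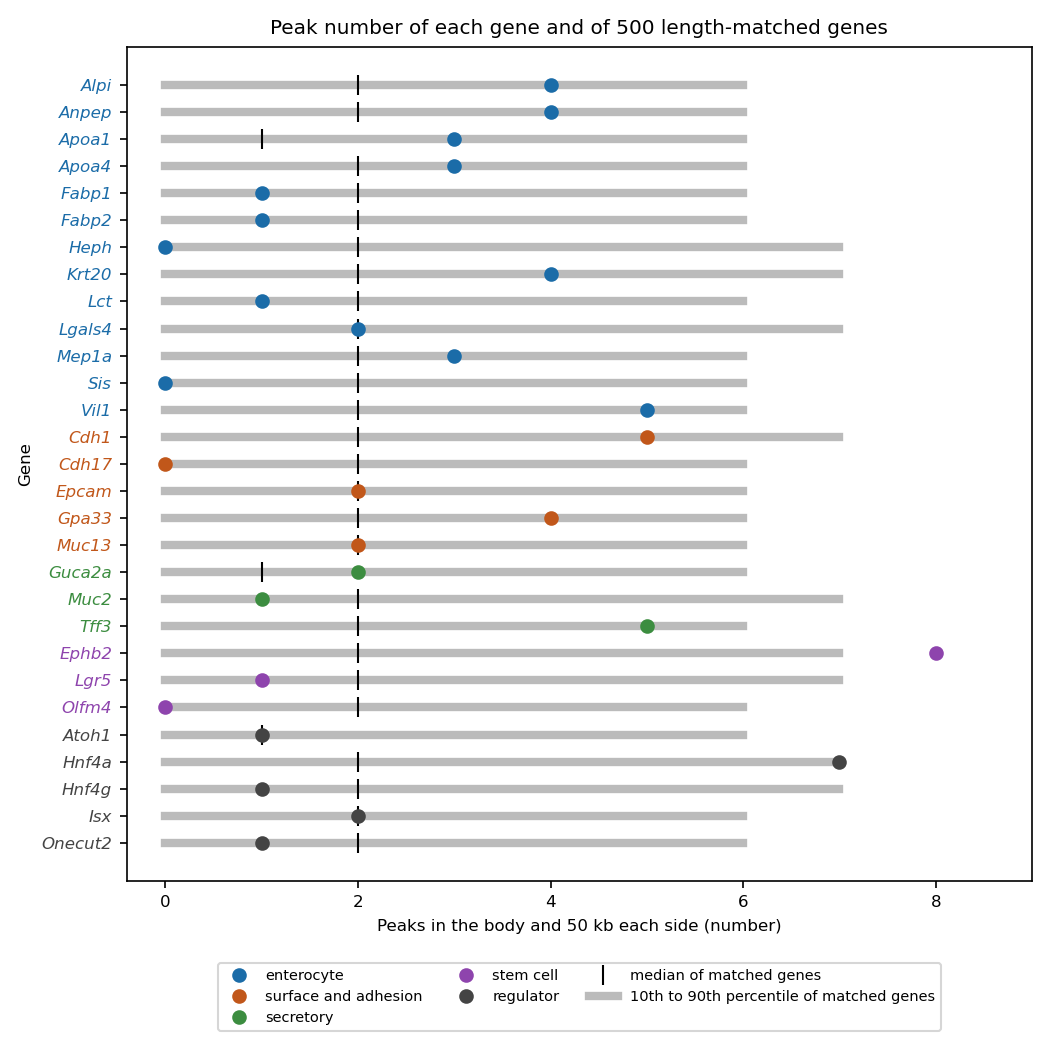
Coloured points give the number of CTCF peaks in the body and 50 kb each side of each intestinal epithelium gene, grey bars the 10th to 90th percentile of 500 length-matched protein-coding genes and black ticks their median. Only Ephb2, with 8 peaks, lies outside its grey bar, and the medians of the matched genes are 1 or 2.

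Among the enterocyte genes, 11 of 13 (84.6%, against 74.1% of all protein-coding genes) had a peak, with a median of 3 and a range of 0 to 5. The roles hold 3 to 13 genes each, and their shares were not tested against those of all genes. Vil1, which encodes the villin that bundles actin in microvilli, had 5 peaks on chromosome 1 (74409384 to 74435560, plus strand). All of them lay before its start, at 11.0, 11.8, 18.6, 22.7 and 47.4 kb, and the next peak beyond its end was 288 kb away. The closest 2 of these peaks were 764 bp apart. The peaks at 11.8 and 18.6 kb were within 1 kb of an end of the phosphatase gene Ctdsp1, that at 22.7 kb of Slc11a1 and that at 47.4 kb of Catip.

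The brush-border enzyme genes differed among themselves. Alpi, which encodes intestinal alkaline phosphatase, had 4 peaks, of which 1 of 280 bp (chr1:87098647-87098926) lay in its body 784 bp from the 3′ end and 2.82 kb after the start. Anpep, which encodes aminopeptidase N, had 4 peaks of 207 to 329 bp, all beyond its end, at 22.5 to 41.1 kb. The 2 middle ones of the 4 lay by the ends of the mesoderm regulator gene Mesp1 and of Wdr93. Mep1a, which encodes a subunit of the metalloprotease meprin, had 1 peak 14.7 kb before the gene and 2 at 13.6 and 15.6 kb beyond it, the farther in the body of Adgrf5. No other whole protein-coding gene lay between the nearest of these peaks.

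Lct and Sis, which encode lactase and sucrase-isomaltase, stood in long stretches with few peaks. Lct had 1 peak, of 177 bp (chr1:128309161-128309337), in its body 19.1 kb after the start, and this was the narrowest of the 71. The nearest peaks on either side of the Lct gene were 449.5 and 496 kb away, and 7 other protein-coding genes lay between them, including Mcm6 of the replicative helicase. Sis had no peak, the nearest being 78.6 kb before its start. On its other side the next peak was 2784 kb away, and no other whole protein-coding gene lay in that interval of 2942 kb.

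Lipid-handling genes of the enterocyte had 1 to 3 peaks. Apoa1 and Apoa4, apolipoprotein genes of chromosome 9, had 3 each. A peak of 316 bp (chr9:46229913-46230228) lay in Apoa1, 1.44 kb after its start and 399 bp from its 3′ end, and a peak of 215 bp (chr9:46246864-46247078) lay 3.51 kb beyond the end of Apoa4. Between these peaks was an interval of 16.9 kb that held the whole of Apoc3 and Apoa4. CTCF sites have been described in the human form of this gene cluster. The third peak of Apoa4, of 193 bp, was 39.3 kb beyond its end between the ends of Zpr1 and Bud13. Fabp1 and Fabp2, which encode the liver-type and intestinal fatty acid binding proteins, had 1 peak each. That of Fabp1 was 42.7 kb before its start, and that of Fabp2 was 4.77 kb beyond its end.

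Heph, which encodes the ferroxidase hephaestin, was the only gene of the list on chromosome X and had no peak. The nearest peaks were 456 and 857 kb from it. On that chromosome the list held 185 peaks, and 22.1% of its 963 protein-coding genes had a peak by the same measure. Krt20, a keratin of differentiated enterocytes, had 4 peaks within the keratin cluster of chromosome 11, at 14.9 and 48.6 kb beyond its end and at 25.2 and 26.8 kb before its start. The keratin gene Krt12 shared the interval of 49.9 kb between the nearest of them. Lgals4, which encodes a galectin of the intestinal lining, had 2 peaks, at 19.3 and 26.2 kb beyond its end. A further peak before the gene was at 50069 bp and so just outside the window.

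Of the surface and adhesion genes, 4 of 5 had a peak (80.0%, against 74.1% of all protein-coding genes), with a median of 2, and 3 of 5 had one in the body (60.0%, against 29.5%). Their median length was 36.3 kb, against 17.2 kb for all protein-coding genes, and the part of length in the body share was not tested. Cdh1, which encodes the epithelial adhesion protein E-cadherin, had 5 peaks on chromosome 8 (106603350 to 106670247). One of 237 bp lay in the body, 22637 bp from the higher-coordinate end. The others lay at 42.1 and 49.2 kb on the lower-coordinate side, the farther in Cdh3, and at 29.5 and 48.0 kb on the higher-coordinate side in Tango6. Cdh17, the liver-intestine cadherin and a direct CDX2 target in human cells, had none, with the nearest peaks at 133 and 112 kb.

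Gpa33, which encodes the A33 antigen of the intestinal surface, had 3 of its 4 peaks in the body, at 23.3, 24.1 and 30.7 kb after the start. The widest of these was 447 bp (chr1:166160668-166161114), and the closest 2 were 787 bp apart. Muc13, a membrane mucin gene, had a peak 4.03 kb after the first of its 2 annotated starts and another 1018 bp beyond its end, which put it just outside the 1 kb limit for gene ends. Epcam, the epithelial cell adhesion molecule gene, had 2 peaks beyond its end, at 14.5 and 41.0 kb.

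All 3 secretory genes had a peak, against 74.1% of all protein-coding genes, and 0 of 3 had one in the body, against 29.5%. Their median length was 4.31 kb, against 17.2 kb for all protein-coding genes, and the part of length here was not tested either. Tff3, which encodes the trefoil factor of goblet cells, had 5 peaks on chromosome 17. Of these, 4 lay on the lower-coordinate side at 3.13, 5.72, 9.26 and 23.1 kb, with the farther 2 in Abcg1. The nearest 2 were 555 and 486 bp wide, and the fifth peak, of 354 bp, was 9.01 kb away on the other side, between Tff3 and Tff2. The interval between the nearest flanking peaks was 16.4 kb and held no other whole protein-coding gene. Guca2a, which encodes guanylin, had peaks 6.54 kb before its start and 28.2 kb beyond its end, and the related Guca2b lay in the same interval of 36.5 kb. Muc2, the main gel-forming mucin of goblet cells, had 1 peak, 47.0 kb before its start in Muc6.

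The 3 stem cell genes spanned the whole range. Ephb2, a receptor that positions cells along the crypt, had 8 peaks, the highest number in the list, on chromosome 4 (136647536 to 136836326, minus strand). Its 5 body peaks were 227 to 292 bp wide. Of these, 1 lay 20.5 kb after the start and the other 4 lay 139 to 187 kb after it, toward the 3′ end. Another peak, of 316 bp, lay 5.29 kb before the start, and Ephb2 is at 189 kb the longest gene of the list. Lgr5, a receptor for R-spondins and a marker of crypt stem cells, had 1 peak over 137 kb of gene and its flanks, 43.7 kb away in Zfc3h1. On the other side of Lgr5 the next peak was 609 kb away. Olfm4, a secreted glycoprotein of crypt stem cells, had no peak, the nearest being 157 kb before its start and 193 kb beyond its end.

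Each of the 5 regulators had a peak, against 74.1% of all protein-coding genes, but Hnf4a differed from the other 4. Hnf4a, a nuclear receptor of enterocytes and liver, had 7 peaks, and the others had 1 or 2. It is known for alternative promoters, and the RefSeq table gave 2 starts, 1 near the lower-coordinate end and 1 downstream of it. Both body peaks, of 495 and 479 bp (chr2:163531977-163532471 and chr2:163534923-163535401), lay between these starts, 25.4 and 28.3 kb after the first and 14.9 and 12.0 kb before the second. Beyond the end of Hnf4a were 4 more, at 13.6, 24.9, 26.5 and 29.3 kb, the farthest by an end of Ttpal. Its seventh peak is the one at Fitm2 shown above.

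The remaining regulators had large intervals without peaks. Hnf4g, the relative of Hnf4a, had 1 peak of 189 bp at 5.21 kb from its lower-coordinate end and no other for 2201 kb on its other side. Isx, an intestinal homeobox repressor of vitamin A uptake genes, had 2 peaks at 37.4 and 42.0 kb beyond its end, and none for 1517 kb before its start. Onecut2 had 1 body peak of 221 bp, with the nearest flanking peaks at 569 and 68.4 kb. Atoh1, the basic helix-loop-helix factor of secretory cells, had 1 peak, 44.9 kb before its start.

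**Figure D3:**
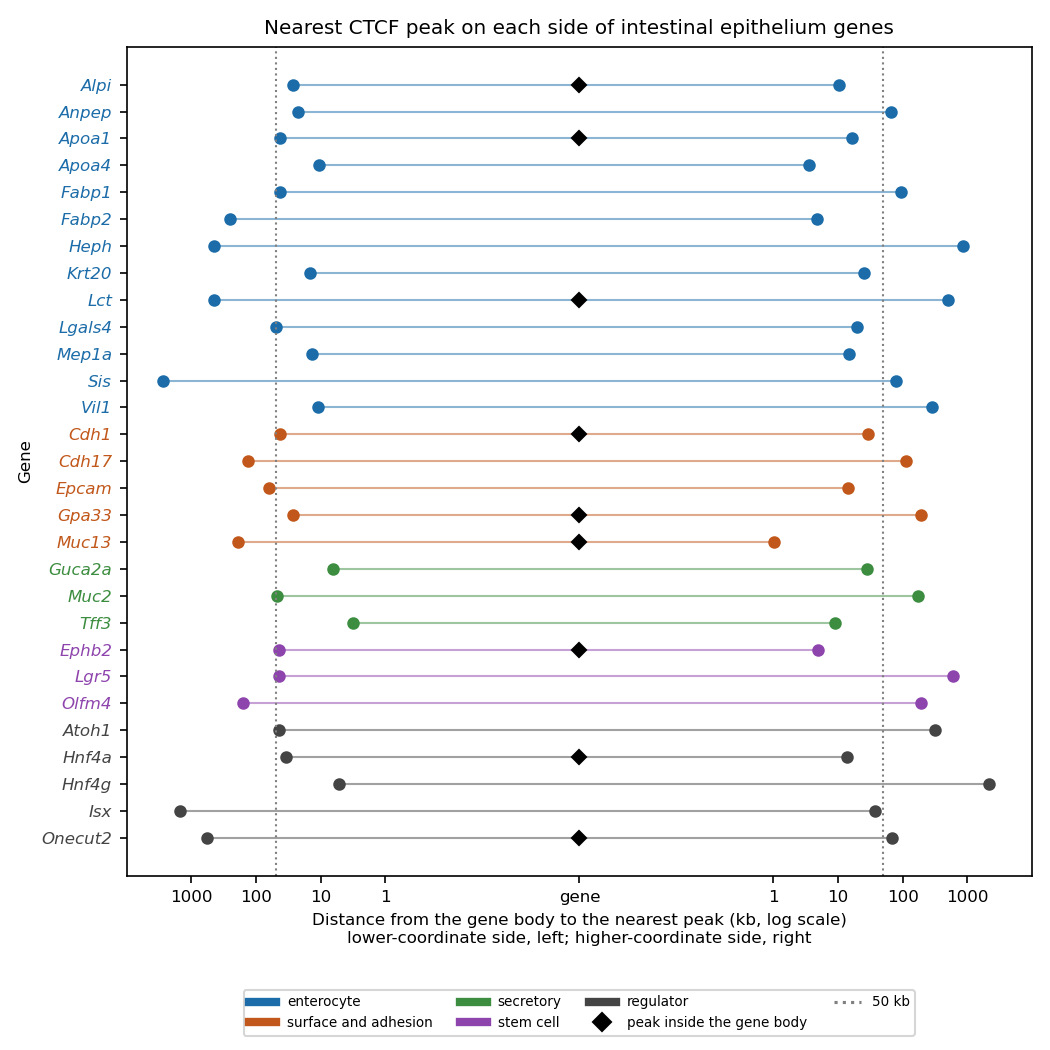
Points give the distance in kb, on a log scale, from each gene body to the nearest CTCF peak on its lower-coordinate side (left) and higher-coordinate side (right), black diamonds mark genes with a peak in the body and dotted lines mark 50 kb. Tff3, at 3.13 and 9.01 kb, and Apoa4, at 10.8 and 3.51 kb, have close peaks on both sides, and Sis, Hnf4g and Isx each have a side with no peak for over 1000 kb.

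Flanking peaks within 50 kb were found on both sides of 10 of the 29 genes, on 1 side of 13 and on neither side of 6. The share with both was 34.5%, and it was also 34.5% over all protein-coding genes. The share with neither was 20.7%, against 31.2% of all protein-coding genes. The interval between the nearest flanking peaks had a median of 238 kb for the intestinal genes, against 160.1 kb for all other protein-coding genes. It was over 500 kb for Heph, Lct, Sis, Lgr5, Hnf4g, Isx and Onecut2, which is 24.1% of the list, against 23.2% of the 21605 protein-coding genes with a peak on both sides. In 8 of the 29 genes (27.6%) it held no other whole protein-coding gene, against 27.9% of those 21605. By role, the median interval was 116 kb for enterocyte genes, 221 kb for surface and adhesion genes, 36.5 kb for secretory genes, 373 kb for stem cell genes and 695 kb for regulators, with 3 to 13 genes in each.

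The number of peaks moved with the number of protein-coding genes nearby. The 5 genes with no protein-coding neighbour within 50 kb (Hnf4g, Isx, Olfm4, Onecut2 and Sis) had 0 to 2 peaks, with a median of 1. The 12 genes with 1 or 2 neighbours had 0 to 5 peaks and a median of 1.5, and 2 of them had 4 or more. The 12 genes with 3 or more neighbours had 1 to 8 peaks and a median of 4, and 7 of them had 4 or more. Among the other protein-coding genes the medians in these classes were 0, 1 and 3, and 4 or more peaks were found at 9.1%, 20.5% and 39.7% of them. The part of this in the differences between roles was not tested. The median number of protein-coding neighbours was 4 for enterocyte genes, 2 for surface and adhesion, secretory and stem cell genes, and 0 for regulators.

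The start windows were also searched for TTTATNG on either strand, a short form of the site bound by CDX factors. It was found in 7 of the 24 windows, at Alpi, Epcam, Fabp1, Fabp2, Krt20, Mep1a and Sis, which is 29.2%, against 9.56% of the windows of other protein-coding genes. Read on the opposite strand, TTTATAG contains the TATA box letters TATAAA, and without that reading 5 of 24 windows (20.8%) held the motif, against 6.38%. Among these 5, the match of Epcam began at position -29 from the start, close to the matches left out at Alpi (-33) and Krt20 (-30). The windows of the intestinal genes had a median of 4 CpG and those of other genes 13. Of the 20 intestinal windows with at most 6 CpG 30.0% held the motif, against 15.7% of other windows with at most 6. With TTTATAG also left out, these shares were 20.0% and 10.7%. The part of base composition in these shares was not tested. The list was chosen as targets of CDX2 programs, so its shares of CDX-type letters cannot be read apart from that choice. The windows of Sis, Fabp1 and Fabp2 are shown because these are enterocyte genes with the CDX-type letters and with at most 1 CTCF peak in the body and flanks. The other genes with these letters had more peaks, with 4 at Alpi, 4 at Krt20, 3 at Mep1a and 2 at Epcam. The SIF1 element of the sucrase-isomaltase promoter is a known binding site of CDX2. Capitals mark TTTATNG or its reverse complement, in Sis (chr3:72967814-72968113, minus strand), Fabp1 (chr6:71199629-71199928, plus strand) and Fabp2 (chr3:122894822-122895121, plus strand).
Sis: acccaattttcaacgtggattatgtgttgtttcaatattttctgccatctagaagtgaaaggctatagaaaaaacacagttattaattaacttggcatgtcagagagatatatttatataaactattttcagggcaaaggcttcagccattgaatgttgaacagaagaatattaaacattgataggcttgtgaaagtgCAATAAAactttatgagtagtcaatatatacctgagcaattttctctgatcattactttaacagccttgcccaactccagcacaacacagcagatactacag
Fabp1: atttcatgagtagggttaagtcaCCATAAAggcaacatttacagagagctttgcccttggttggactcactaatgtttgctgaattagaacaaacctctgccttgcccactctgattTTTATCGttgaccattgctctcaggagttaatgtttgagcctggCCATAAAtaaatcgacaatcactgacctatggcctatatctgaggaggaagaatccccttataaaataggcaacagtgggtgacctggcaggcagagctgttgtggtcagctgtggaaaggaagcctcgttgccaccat
Fabp2: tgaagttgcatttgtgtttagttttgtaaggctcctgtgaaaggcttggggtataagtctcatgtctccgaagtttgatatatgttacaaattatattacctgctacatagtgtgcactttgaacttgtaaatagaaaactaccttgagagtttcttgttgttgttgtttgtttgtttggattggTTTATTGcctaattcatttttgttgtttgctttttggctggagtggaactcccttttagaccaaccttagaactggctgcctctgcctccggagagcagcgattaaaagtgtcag
The first marked base stood at position -52 from the start in Sis and -65 in Fabp2, and Fabp1 had 3 matches, beginning at -227, -133 and -89. The letters are a description of the sequence, and CDX2 binding was not measured in the list analysed here.

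A longer list was counted in the same way. Of 40 other genes of the intestinal epithelium, 32 had at least 1 peak by this count, which is 80.0% (exact 95% binomial interval 64.4 to 90.9%), with a median of 2, against 74.1% of all protein-coding genes. A peak lay in the body of 14 (35.0%, against 29.5%) and within 1 kb of an end of 0 (against 12.0%). Genes with many peaks included Espn, which encodes an actin bundler, with 10, the brush-border myosin gene Myo1a with 8, and Apoa5 and Fcgbp with 6 each. Apoa5 and Apoc3, both in this longer list, are neighbours of Apoa1 and Apoa4 and share peaks with them, so the 2 lists are not fully separate. None were found at 8 of the 40. Farthest from a peak, at 156 to 283 kb, were the transporter gene Slc10a2, the peptidase gene Dpp4 and the transcription factors Gata6 and Klf5. The rest of the 8 had a nearer peak, the closest at 50.3 kb, just outside the 50 kb window.

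Genes of the other CDX2 tissue and of the host cell type were counted the same way. All 10 trophectoderm genes had a peak, against 74.1% of all protein-coding genes, with a median of 4, against 2, and a range of 1 to 8. They were led by Cdx2 itself with 8, Krt8 with 7 and Krt18 and Tead4 with 6 each. Krt8 and Krt18 are both on chromosome 15. Peaks shared between genes of this list were not counted apart, so its 10 genes may not be fully separate. Of 24 fibroblast genes, 19 (79.2%, against 74.1% of all protein-coding genes) had a peak, with a median of 2, led by S100a4 with 8 and Col1a1 and Col5a1 with 7 each. The differences between lists were not tested.

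**Figure D4:**
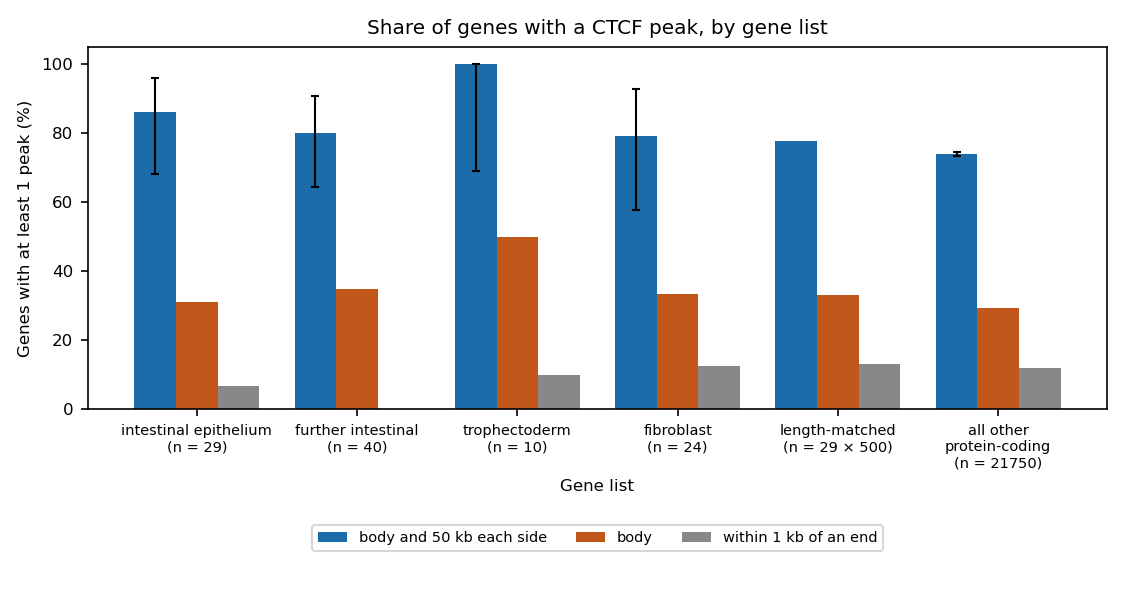
Bars give the percentage of genes with at least 1 CTCF peak in the body and 50 kb each side, in the body, or within 1 kb of an end, for each gene list, with exact 95% binomial intervals on the first bar except for the pooled matched genes. For the body and 50 kb, the intestinal epithelium genes reach 86.2%, the pooled length-matched genes 77.7% and all other protein-coding genes 74.0%.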

How the data were processed

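The series holds 5 ChIP-seq libraries, grouped by their titles. Per the submitters' processing notes, STAR, Picard and MACS2 were used with the builds mm10 and dm6. The labels do not state the role, version or threshold of each tool, how conditions and replicates were merged, or whether the Drosophila spike-in entered the peaks.

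Per its name and contents, the deposited file, made by the authors, lists the start and end of 22756 peaks without header or score, so positions are its unit and depth per sample is unknown. The mitochondrial peak was left out, which left 22755.

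Peak starts were counted from 1. Genes came from NCBI RefSeq GRCm38.p6 (49997 entries), without 340 autosomal and X-linked entries at positions under 3 Mb, where the file has no peak and the table seems to count along scaffolds. Midpoints were counted in the body and 50 kb each side with Python 3.11.15, pandas 2.3.3, numpy 2.4.6 and scipy 1.17.1. Matched genes were the 500 nearest in log length outside the list. Counting was checked on simulated peaks. No p-value was computed, because the list has no replicates.

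The members, roles and further lists were chosen with earlier results of these data known. All members were named; from the further lists, up to 4 genes with most peaks and up to 4 with none were named, and so were neighbours between the same peaks. Other neighbours were named after their values were seen, as were the sequences and motifs shown, the CpG limit and the neighbour classes. Alternatives were other flanks, any overlap, wide peaks, merged peaks, other end distances and other matching.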

Additional observations from a re-analysis of the deposited data

How the results depend on the processing

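No paired analysis was possible because the peak list carries no replicate or condition. Of 31 alternative values 18 stayed within 1.5 times the value given. In the gene body alone, 9 genes had a peak, the median was 0, 16 distinct peaks remained and 8 genes stood above their matched median. Within 10 kb, 14 of 29 genes had a peak, a lower share than the 50.8% of all protein-coding genes. The median was 0, against 1 for all protein-coding genes, and there were 26 distinct peaks. Within 100 kb, 26 of 29 genes had a peak, a higher share than the 81.8% of all protein-coding genes, and there were 110 distinct peaks. With the wider peaks alone (median width or more), 16 of 29 genes had a peak, a lower share than the 56.8% of all protein-coding genes. The median was 1, the same as for all protein-coding genes, and there were 35 distinct peaks. Gene-end peaks were found at 1 gene within 500 bp and at 4 within 2.5 kb (Alpi, Apoa1, Muc13 and Ephb2), against 7.82% and 21.2% of all protein-coding genes. Each of these moves in the counts follows from a smaller or larger window or fewer peaks. Whether the list stood above or below all protein-coding genes also changed between settings, and this was not tested. The number of genes above their matched median ran from 8 to 16, the highest with matching also on neighbouring genes and 11 with matching within the chromosome. For these other settings the share over all protein-coding genes was not computed, so the counts cannot be read as high or low. Without scores, weak and strong peaks could not be told apart, and an unlisted site may lack reads.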
